A study of Mus musculus with 12 samples.

Results

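The genes described here encode the proteins of the cytosolic ribosome. They were chosen by name alone, as array probes whose gene name in the scanner files follows the Rpl or Rps pattern with a number, together with Rplp0, Rplp1, Rplp2 and Rpsa; the pattern takes in neither the kinases of ribosomal protein S6 nor gene names that end in -ps, the mark of a pseudogene. The rule found 84 of the 36161 gene names on the array, covered by 184 probes, and the brightest probe stood for each gene. Of the 84 genes, 82 passed the filter on dim signal, out of 24120 genes that did: 43 of the large subunit, 30 of the small subunit, the 3 stalk proteins and 6 of 8 paralogs. Rpl10l and Rpl39l did not pass.

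RNA came from the hippocampus of 12 wild-type mice, all male and adult, kept in the dark throughout, and 1-colour Agilent arrays were used, 1 per mouse. Hippocampi of 3 mice were taken at each of 4 circadian times: CT0 after 36 hours of darkness, CT6 after 42, CT12 after 48 and CT18 after 30. Circadian time counts hours from the start of the subjective day, so CT0 opens that day and CT12 the subjective night, when mice are active. No mutant, drug or light treatment was part of the comparison, and all groups share the wild-type genotype and the darkness.

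Each ribosome joins a small subunit, which reads the messenger RNA, to a large subunit, which forms the peptide bond, and most ribosomal proteins are present in 1 copy per ribosome. Many of their messenger RNAs begin with a cytosine followed by an unbroken run of pyrimidines, the 5′ terminal oligopyrimidine (TOP) tract, through which mTORC1 signalling controls their translation. In mouse liver, the circadian clock is known to time the translation of these messages and the making of ribosomes; in the hippocampus, protein synthesis is needed to store long-term memory.

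The promoter sequences below are examples of members with and without a TOP tract at an annotated start. Counts over all matched members follow them. They are from RefSeq (GRCm38.p6), run 5′ to 3′ in the gene's direction from 45 bases before the annotated start to 15 bases from the start on, and the capitals mark the run of C and T that opens at a C on the start base. Rps6 (the target of S6 kinase), Rps15a, Rps21, Rpl28, Rpl38 and Rplp2 have such a run. Rps21 has another annotated start, not shown, without such a run. Rplp0, Rpl4 and Rpl36al have none at their annotated start. In Rpl4 a long run of C and T lies shortly before that start, so the example speaks of the annotated base only.
Rps6: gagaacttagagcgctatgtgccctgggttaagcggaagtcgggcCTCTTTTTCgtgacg
Rps15a: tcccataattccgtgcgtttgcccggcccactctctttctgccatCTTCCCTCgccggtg
Rps21: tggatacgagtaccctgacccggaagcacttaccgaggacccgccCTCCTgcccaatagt
Rpl28: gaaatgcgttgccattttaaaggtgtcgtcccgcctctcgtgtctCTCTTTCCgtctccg
Rpl38: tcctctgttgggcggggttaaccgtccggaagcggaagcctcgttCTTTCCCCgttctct
Rplp2: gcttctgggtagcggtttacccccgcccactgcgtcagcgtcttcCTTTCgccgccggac
Rplp0: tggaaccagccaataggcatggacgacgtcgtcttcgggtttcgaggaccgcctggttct
Rpl4: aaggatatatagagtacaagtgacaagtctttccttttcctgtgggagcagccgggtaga
Rpl36al: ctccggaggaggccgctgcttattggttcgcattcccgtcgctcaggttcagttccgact

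On GRCm38.p6 the Rps6 window is chr4:86857353-86857412 on the minus strand, the Rps15a window chr7:118116133-118116192 on the minus strand and the Rps21 window chr2:180257334-180257393 on the plus strand. The Rpl28 window is chr7:4792920-4792979, the Rpl38 window chr11:114668535-114668594 and the Rplp2 window chr7:141447606-141447665, all on the plus strand. The Rplp0 window is chr5:115559422-115559481 and the Rpl4 window chr9:64173342-64173401, both on the plus strand, and the Rpl36al window is chr12:69184053-69184112 on the minus strand.

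RefSeq promoters were matched for 63 members, with 75 annotated starts among 32851 in the table. A C at the start followed by at least 4 of C or T was present at 13 of the 75 member starts (17.3%), against 2.51% of all starts. A run of at least 8 of C or T within 20 bases either side of the start was present at 31 of the member starts (41.3%), against 16.05%. In the whole window of 250 bases before to 50 after the start, on both strands, CCGGAAG (letters that GABP and other ETS factors bind) was present in 27 member promoters (36.0%), against 8.86% of all. AAGATGGCG (letters that YY1 binds) was present in 6 (8%), against 1.40%. The E-box CACGTG, the sequence that CLOCK and BMAL1 bind, was present in 8 member promoters (10.67%), against 7.15%, and TATAAA in 7 (9.33%), against 13.6%. These are 6 searches for letters, not for binding; starts of 1 gene overlap and are not independent.

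Signals are given as scaled log2, the log2 of the signal relative to the 75th percentile of that array, so a difference of 1 is a doubling. Spots well above background made up 59.3% to 77.1% of an array's 59305 spots, and 0 were saturated. Of the 184 member probes, 180 were well above background on all 12 arrays. CT12 mouse 11 stood apart from the other libraries: its correlation with each of them over all genes lay between 0.945 and 0.965, against 0.984 or more among the other 11. In that library the median deviation of 8 excitatory neuron markers was -4.35, and that of 9 cerebellar markers was 4.58, against -0.71 to -0.25 elsewhere; the hippocampal label is therefore at odds with the markers in that library. CT12 mouse 10 also differed in its markers: the median deviation of 7 thalamus and midbrain markers was 1.51 there and 1.14 in CT12 mouse 11, against -0.66 to -0.08 elsewhere, and that of the excitatory neuron markers was -0.21 there, against 0.18 to 0.56 in the libraries other than CT12 mouse 11. Choroid plexus markers were high in 5 libraries (CT0 mouse 1, CT6 mouse 7, CT12 mouse 10, CT12 mouse 11 and CT18 mouse 14), with median deviations of 1.87 to 3.73, against -2.27 to -1.87 in the other 7. In such bulk tissue, fewer cells of a type and less RNA per cell cannot be told apart. The arrays lay on 3 slides with 1 array per circadian time on each; array position matched circadian time, and circadian time matched hours in darkness, so these cannot be told apart.

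The first question was whether the ribosomal protein genes changed over circadian time. None of the 82 was called, and their time means lay close together: the median member had a range of 0.09 between its highest and lowest time mean, against 0.30 for the median gene tested. Apart from Rpl3l, the largest range of time means was 0.27, for Rpl38. Highest means fell at CT0 in 5 members, at CT6 in 19, at CT12 in 42 and at CT18 in 16. Shares over all genes are not given for these counts. CT12 mouse 12 alone was the highest of the 12 libraries in 73 members, against 13.7% of all genes. The median amplitude of a fitted 24-hour cosine was 0.04, against 0.13 for all genes. The figures for all genes include dimmer genes and CT12 mouse 11, where 38.4% of them lay over 0.5 from the mean of the other 11 libraries. Ranges and amplitudes without that library, or for genes of like signal, are not given.

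In limma's moderated F test on the 4 means, 0 of 82 members had an adjusted p under 0.05, where 43 genes, 0.178% of those tested, did. At an unadjusted p under 0.05 the count was 1 member (the dim paralog Rpl3l), where 10.6% of all genes passed. Rpl3l passed the filter on dim signal only through CT0 and CT18, so its p is no support for a change over time. In the 24-hour cosine test 0 members passed after adjustment, against 0.0705% of all genes, and 0 passed unadjusted, against 9.73%. The smallest adjusted p was that of Rpl3l in both tests, 0.470 in the F test and 0.534 in the cosine test. Without CT12 mouse 11, 0 members were called by either test, where 0.245% and 0.282% of all genes were.

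CT12 and CT0 lie 12 hours apart, at the start of the subjective night and day. The median member differed by 0.06 between CT12 and CT0, and 62 of 82 members had the higher mean at CT12; among all genes the median was -0.02 and 46.2% had the higher mean at CT12. Differences ran from -0.40 in Rpl3l to 0.27 in Rpl38, and from -0.17 upward without Rpl3l. By role, the median difference was 0.07 in the large subunit (33 of 43 above 0), 0.04 in the small subunit (22 of 30) and 0.09 in the stalk (2 of 3).

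No member passed the test for CT12 against CT0: 0 of 82 had an adjusted p under 0.05 in limma (0.0622% of all genes did), and 0 had an unadjusted p under 0.05 (11.7% did). The smallest adjusted p among members was 0.464, for Rpl21. The 95% interval of the difference lay within 1.5-fold either way for 76 of 82 members, against 50.8% of all genes. All genes include dimmer ones, and the share for genes of like signal is not given. The median SD within times was 0.17 in members and 0.16 in other genes of like signal. The 6 members with wider reach were Rpl14, Rpl38, Rpl3l, Rps14, Rps2 and Rps21. Without CT12 mouse 11 the median difference was 0.11, against -0.0098 for all genes, and 0 members were called (0.029% of all genes). In that fit 78 of 82 members were above 0 and 66 intervals lay within 1.5-fold. Shares over all genes are not given for these counts. Leaving out CT12 mouse 11 moved the difference of Rps21 to 0.60 from 0.17 ± 0.44 (SE) and that of Rps14 to 0.31 from 0.17. It moved that of Rpl13a to 0.31 from 0.17 and that of Rpl3l to -0.60 from -0.40. That library lies on slide 2, where Rps21 was low at every time.

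The excess of positive differences rested on 1 library. Within slides, the median CT12 minus CT0 difference was -0.06 on slide 1, -0.12 on slide 2 and 0.35 on slide 3, which holds CT12 mouse 12. Without that mouse the median was -0.10 and 11 of 82 members were above 0, a count for which the share over all genes is not given. That fit leaves CT12 mouse 10 and CT12 mouse 11, the libraries with raised thalamus and midbrain markers (1.51 and 1.14). Their excitatory neuron markers were at -0.21 and -4.35. In CT12 mouse 12 these lists were at -0.08 and 0.50, so tissue and mouse cannot be told apart here. Without CT12 mouse 10, the library with thalamus and midbrain markers, the median was 0.13 and 0 members were called. CT12 mouse 10 was the lowest of the 12 libraries in 25 members, CT12 mouse 11 in 28 and CT18 mouse 14 in 12. Shares over all genes are not given for these counts. The part of thalamus and midbrain tissue in the members' values was not tested.

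CT18 against CT6 compares the middle of the subjective night with the middle of the subjective day. Here the members' differences were centred near 0, as were those of all genes. The median difference was -0.0011, against -0.02 for all genes. In 39 of 82 members the mean was higher at CT18, against 46.2% of all genes. Without Rpl3l the differences ran from -0.13 (Rps26) to 0.14 (Rps21). By role, the medians were -0.0044 in the large subunit (17 of 43 above 0), -0.0062 in the small subunit (15 of 30) and 0.05 in the stalk (3 of 3). Within slides the median was -0.08, -0.04 and 0.10. In limma 0 members had an adjusted p under 0.05, against 0.133% of all genes, and 1 (Rpl3l) had an unadjusted p under 0.05, against 8.3%. Rpl3l passed the filter on dim signal only through CT0 and CT18, so its p is no support for a difference. The 95% interval lay within 1.5-fold for 79 of 82 members, against 54.7% of all genes, which include dimmer ones. The share for genes of like signal is not given. The exceptions among members were Rpl3l, Rps14 and Rps21. Without CT12 mouse 11, which enters only the spread here, 0 members were called, where 1.24% of all genes were.

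**Figure D1:**
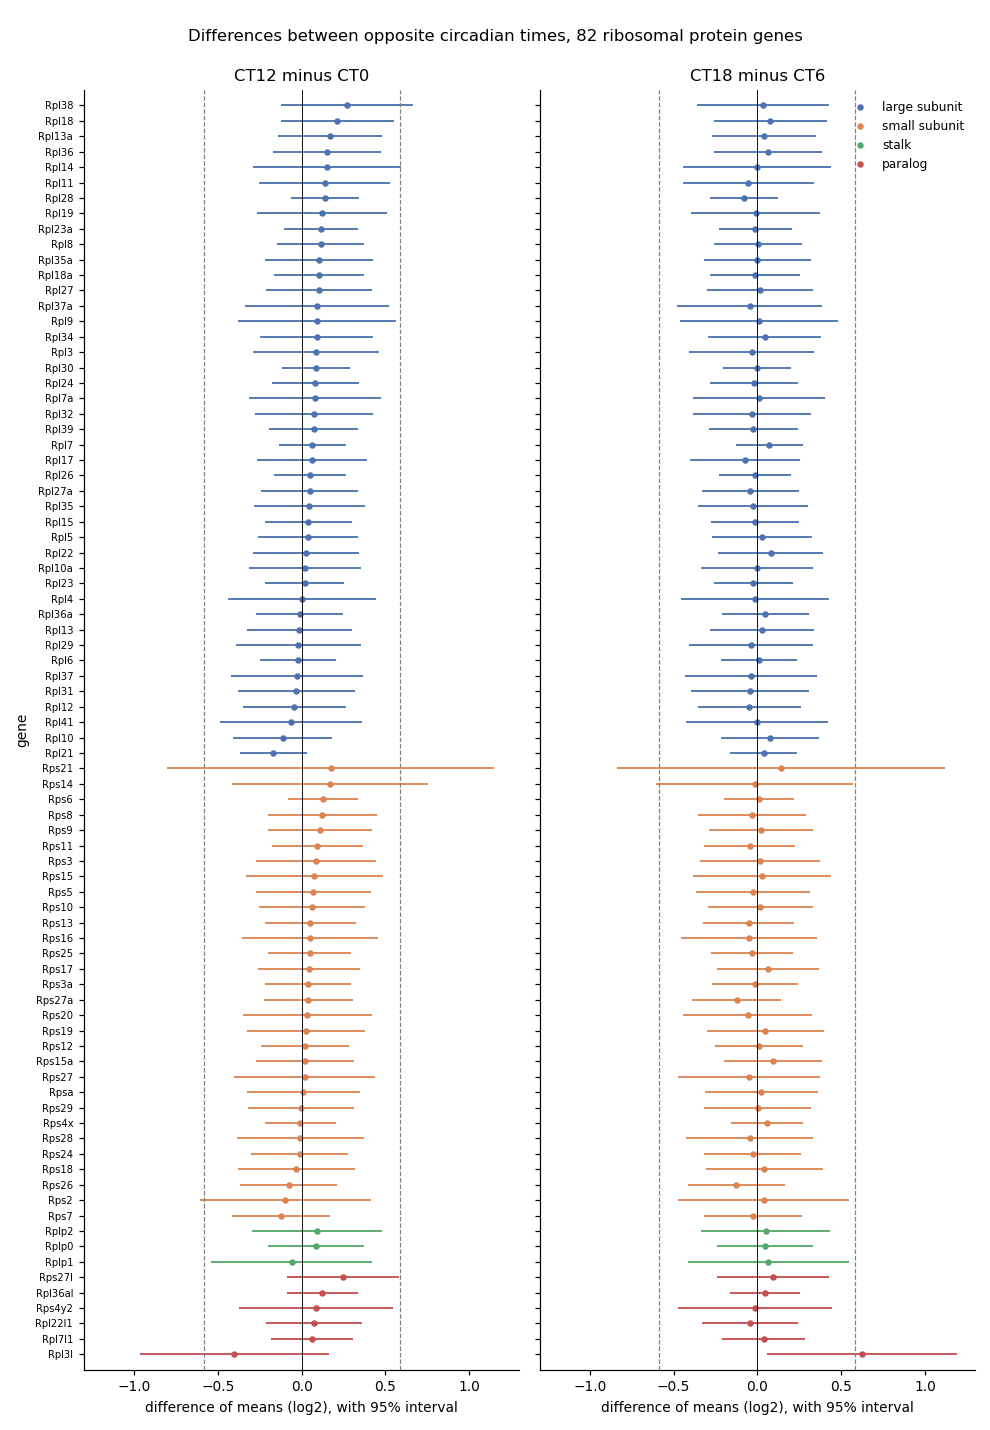
Difference of means (log2, horizontal axis) for CT12 minus CT0 (left) and CT18 minus CT6 (right) in each of the 82 genes, ordered within role by the CT12 minus CT0 difference. Points are differences between means of 3 mice, bars are 95% intervals from limma, and dashed lines mark 1.5-fold; 76 intervals on the left and 79 on the right lie between them.

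Among the large subunit genes, Rpl21 had the smallest adjusted p for CT12 against CT0. Its scaled log2 signal (probe at mm9 chr5:147648267-147648326) was -1.08, -0.94 and -0.98 at CT0, -1.09, -0.97 and -1.21 at CT6, -1.17, -1.23 and -1.11 at CT12, and -1.05, -1.004 and -1.10 at CT18. All CT12 values lay below all CT0 values, by little. The signal was low for a large subunit gene, and the other Rpl21 probe was lower still, with slide means of -1.49, -1.32 and -1.40. How well these probes report Rpl21 RNA was not tested. The difference was -0.17 ± 0.09 (SE, n = 3 mice each), with an adjusted p of 0.464 in limma. Where arrays were centred on their medians, which shifts all genes of an array alike, the difference was 0.04.

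Rpl38, which in mouse embryos is needed for the translation of Hox messages, had the largest positive difference between CT12 and CT0. Its signal (mm9 chr11:114533586-114533645) was 7.28, 7.09 and 7.38 at CT0, 7.33, 7.57 and 7.37 at CT6, 7.25, 7.38 and 7.93 at CT12, and 7.25, 7.56 and 7.57 at CT18. Only CT12 mouse 12, at 7.93, lay above the CT0 range by more than a trace, and the other CT12 mice overlapped with CT0. The difference was 0.27 ± 0.18 (SE, n = 3 each), with an adjusted p of 0.532 in limma. Rpl28 had 6.09, 6.21 and 6.09 at CT0, 6.18, 6.28 and 6.10 at CT6, 6.15, 6.30 and 6.36 at CT12, and 6.12, 6.14 and 6.06 at CT18, a spread of 0.30 over all 12 mice. Rpl18 and Rpl13a, also among the largest positive differences, differed by 0.21 and 0.17, and Rpl10, among the smallest, by -0.11; their adjusted p values in limma were 0.562, 0.616 and 0.738. Where arrays were centred on their medians these differences were 0.43, 0.38 and 0.098, so that of Rpl10 changed sign. Such centring shifts all genes of an array alike, so the move was common to all genes. Rpl30 had the narrowest range of all members, 0.27 over the 12 libraries.

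Among the small subunit genes, Rps6, whose phosphorylation is a common readout of mTORC1 activity, had 6.07, 6.16 and 6.16 at CT0, 6.11, 6.22 and 6.05 at CT6, 6.11, 6.30 and 6.38 at CT12, and 6.10, 6.18 and 6.13 at CT18. The CT12 and CT0 values overlapped, and the difference was 0.13 ± 0.09 (SE, n = 3 each; adjusted p 0.578 in limma). Rps14, whose loss of 1 copy in humans causes anaemia in 5q- syndrome, spread most widely at CT12: 7.60, 7.74 and 8.73, against 7.78, 7.79 and 7.99 at CT0. CT12 mouse 12 alone lay above CT0, and the other CT12 mice lay below it. The difference was 0.17 ± 0.26 (SE; adjusted p 0.814 in limma) and -0.18 without that mouse. Rps7 and Rps26 differed by -0.12 and -0.08 between CT12 and CT0. Both differences were positive, 0.09 and 0.13, where arrays were centred on their medians, a shift common to all genes. For CT18 against CT6, Rps26 and Rps27a, which is made as a fusion with ubiquitin, had the lowest differences, -0.13 and -0.12, and Rps15a and Rpl22 had 0.09 and 0.08; the adjusted p in limma was 0.993 or more for each.

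The stalk proteins Rplp0, Rplp1 and Rplp2 recruit elongation factors to the large subunit. Rplp0 had 6.67, 6.66 and 6.29 at CT0, 6.63, 6.69 and 6.55 at CT6, 6.49, 6.55 and 6.85 at CT12, and 6.64, 6.69 and 6.67 at CT18. Rplp1 had 6.96, 7.28 and 7.19 at CT0, 7.06, 7.34 and 7.14 at CT6, 6.88, 6.77 and 7.61 at CT12, and 6.98, 7.35 and 7.41 at CT18. CT12 and CT0 values overlapped in both genes, and CT12 mouse 12 was the highest of all. Rplp2 differed by 0.09 ± 0.17 between CT12 and CT0 (SE), and the stalk genes' F test p after adjustment was 0.972 or more in limma.

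**Figure D2:**
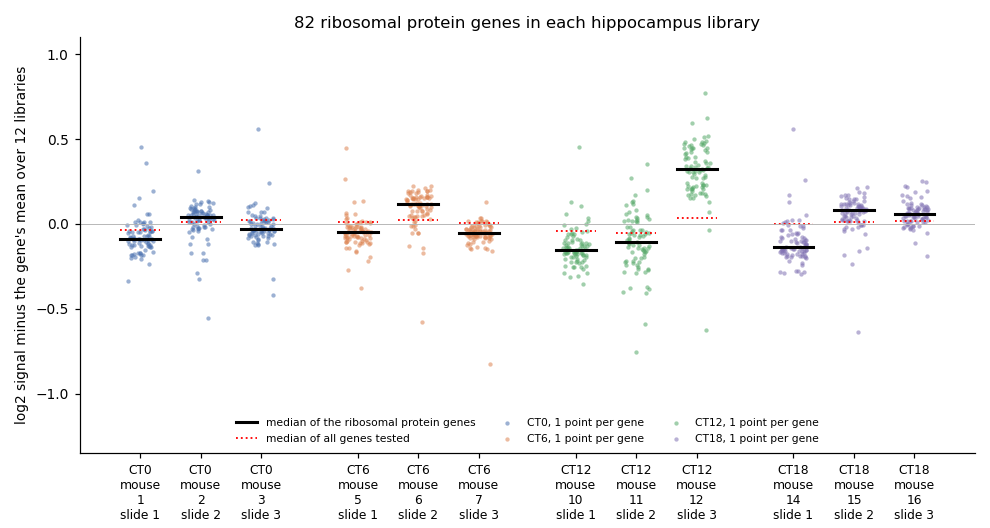
Deviation of each of 82 genes from its own mean over the 12 libraries (vertical axis, log2), for each library grouped by circadian time. Black bars are the members' medians, which lie between -0.15 and 0.12 in 11 libraries and at 0.32 in CT12 mouse 12; red dotted bars are the medians of all genes tested.

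The members' level differed from mouse to mouse, and so did that of other genes of like signal. The members' median deviations were -0.09, 0.04 and -0.03 in the CT0 libraries, -0.05, 0.11 and -0.05 at CT6, -0.15, -0.10 and 0.32 at CT12, and -0.14, 0.08 and 0.06 at CT18. In 1752 other genes of like signal (mean signals in the members' central range) the medians were -0.08, 0.05 and -0.04 at CT0, 0.0083, 0.10 and -0.03 at CT6, -0.13, -0.12 and 0.17 at CT12, and -0.06, 0.08 and 0.06 at CT18, close to the members' medians in most libraries. The mean of the members' medians was -0.02 ± 0.06 at CT0, 0.0049 ± 0.10 at CT6, 0.02 ± 0.26 at CT12 and 0.0020 ± 0.12 at CT18 (SD, n = 3 mice each), so the times overlapped. Within times the median SD of a member was 0.17, against 0.16 for those other genes and 0.22 for all genes. Once each library's family median was taken out, the median SD of a member over the 12 libraries was 0.08.

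CT12 mouse 12 was the highest of the 12 libraries in 73 of 82 members, as it was in 13.7% of all genes. It lay above the mean of the other 11 in 80 members, all but the low-signal Rpl3l and Rpl21, against 56.1% of all genes. The members' median difference from that mean was 0.35. CT12 mouse 12 was over 0.5 away from that mean in 16 members, 15 of them higher, against 10.4% of all genes. The largest excess was 0.84, in Rps14. Other genes of like signal had a median deviation of 0.17 in that library, beside 0.32 for the members, and the library had the lowest share of spots well above background, 59.3%. The members' median there was the highest of the 12 under every scaling tried, but its size was 0.12 both under quantile normalization and in the authors' deposited table. How far signal strength or scaling makes up this excess was not tested.

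CT12 mouse 11, the library with cerebellar markers, lay closer to the other libraries in these genes than over all genes, and below their mean in most members. Only 2 of 82 members lay over 0.5 from the mean of the other 11 libraries, against 38.4% of all genes: Rps21 at -0.82 and Rps2 at -0.64. That library lies on slide 2, where Rps21 was low at every time, with a slide mean of 2.74, against 3.83 on slide 1. The part of the slide in the Rps21 value was not tested. The members' median difference from the other libraries was -0.11. CT12 mouse 11 lay above their mean in 22 of 82 members and was the lowest of the 12 libraries in 28. Shares over all genes are not given for these counts, nor is the share over 0.5 away for genes of like signal. Over the members, the lowest correlation of that library with another was 0.992, beside 0.945 over all genes; these are correlations across genes that differ in probe, and describe likeness only. Over the 12 libraries, 78 of 82 members had a range under 1, against 61.2% of all genes, with Rpl3l, Rps14, Rps2 and Rps21 outside. All genes include dimmer ones, and that share for genes of like signal is not given.

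**Figure D3:**
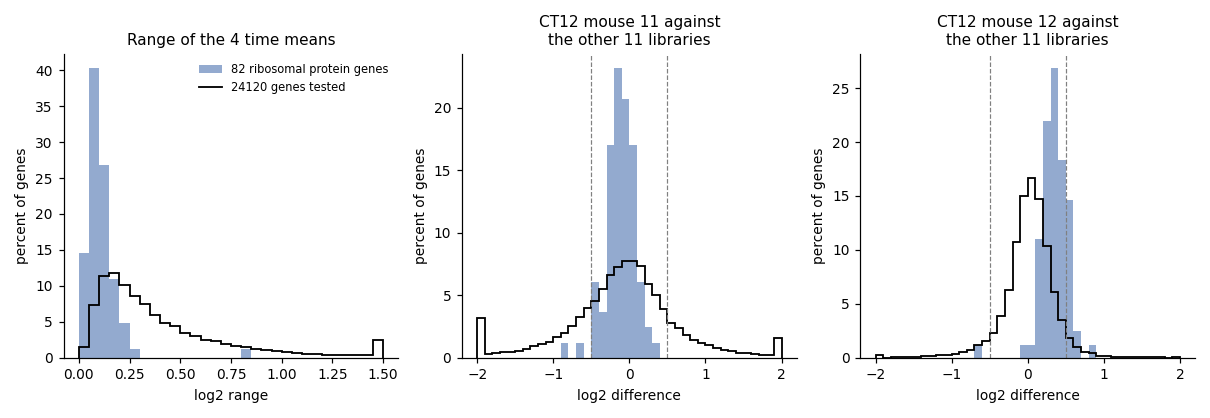
Percent of genes (vertical axis) by log2 range of the 4 time means (left) and by log2 difference of CT12 mouse 11 (middle) and CT12 mouse 12 (right) from the mean of the other 11 libraries, for the 82 ribosomal protein genes (filled) and all 24120 genes (line). The end bins collect values beyond the axis, dashed lines mark 0.5, and the members are narrow around -0.11 in the middle panel and shifted to 0.35 in the right one.

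Rps21, a small subunit protein, and the large subunit proteins Rpl4 and Rpl7a differed by slide; they were picked out after their values were seen. Rps21 (mm9 chr2:179993084-179993143, its only probe) had 3.73, 3.82, 3.83 and 3.94 on slide 1, 2.82, 2.80, 2.62 and 2.74 on slide 2, and 3.37, 3.23, 3.997 and 3.59 on slide 3, each in the order CT0, CT6, CT12 and CT18. Slides 1 and 2 did not overlap, and the 4 times spanned 0.20 on each. The difference between slides 1 and 2 was 1.09, and 0.95 to 1.18 under the other scalings. Rpl4 (mm9 chr9:64026265-64026324) differed by 0.45 between those slides and Rpl7a (mm9 chr2:26768759-26768818) by 0.32. Under the other scalings the difference was 0.31 to 0.52 for Rpl4 and 0.18 to 0.42 for Rpl7a, lowest with median centring in both.

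A signal higher on slide 1 than on slide 2 was not common in the family. Slide 1 had the higher mean in 10 members, a count for which the share over all genes is not given. Full separation the other way was not counted. It was present in Rpl14, for example, at 6.65 to 6.77 on slide 1 and 6.97 to 7.09 on slide 2. In 4 members (these 3 and Rpl13a) all 4 arrays of slide 1 lay above all 4 of slide 2, against 12.0% of all genes, and 1 member, Rps21, had slide means over 0.5 apart, against 13.5%. The median member was 0.12 lower on slide 1 than on slide 2 (-0.12). Of the 180 member probes, 4 were over 0.5 higher on slide 1, for Rpl17 (2 probes not in use), Rpl7a and Rps21, and 0 were over 0.5 lower. Those 4 probes had 30.0% to 36.7% G and C, below the member median of 45%; the correlation of that share with the slide difference was -0.35 over the member probes and 0.11 over 30730 probes of all genes, as a description of probes that share arrays. The part of probe composition in the slide differences was not tested. In a limma fit that blocks on slide, the F test on time gave an adjusted p of 0.776 for Rps21 and 0.995 for Rpl4.

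**Figure D4:**
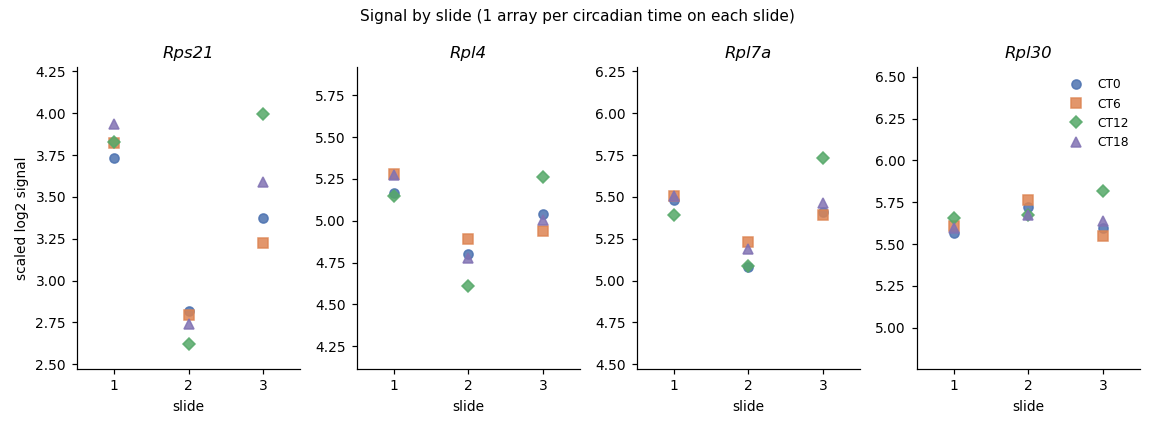
Scaled log2 signal (vertical axis, same span in each panel) of Rps21, Rpl4, Rpl7a and, for comparison, Rpl30 on slides 1, 2 and 3, with 1 point per library and a marker for each circadian time. Rps21 lies at 2.62 to 2.82 on slide 2, against 3.73 to 3.94 on slide 1, while Rpl30 spans 0.27 over all libraries.

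The paralogs are close copies of core ribosomal proteins, several of them restricted to certain tissues. Rpl3l, the paralog of Rpl3 found in skeletal muscle and heart, was the member with the widest range of time means, 0.80. Its signal (mm9 chr17:24872413-24872681) was -3.98, -4.41 and -3.88 at CT0, -4.82, -4.61 and -5.26 at CT6, -4.33, -4.09 and -5.06 at CT12, and -4.26, -4.33 and -4.21 at CT18. All CT18 values lay above all CT6 values, and the CT12 values overlapped with the CT0 values. The signal was dim: it was not well above background in CT6 mouse 7 and CT12 mouse 12, the libraries with the lowest values.

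Rpl3l passed the filter only through CT0 and CT18, where its signal was well above background on all 3 arrays, so its differences are given as a description. Its CT18 minus CT6 difference was 0.63 ± 0.25 (SE, n = 3 each), and 0.14 with normexp background correction. Its CT12 minus CT0 difference was -0.40 ± 0.25, and 0.11 under quantile normalization. Weighting arrays by quality put its adjusted p in the F test at 0.0486, and over all alternatives run that p ranged from 0.0486 to 0.807.

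Rps27l, a paralog of Rps27 that p53 induces in human cells, had 2.99, 2.75 and 2.38 at CT0, 2.60, 2.74 and 2.80 at CT6, 2.79, 3.07 and 3.002 at CT12, and 2.70, 2.88 and 2.84 at CT18. The CT12 values reached above those at CT0 and overlapped with them; the difference was 0.25 ± 0.15 (SE, n = 3 each; adjusted p 0.510 in limma). Rpl36al, a copy of Rpl36a, had 3.92, 3.74 and 3.86 at CT0, 3.94, 4.01 and 3.96 at CT6, 3.86, 3.91 and 4.12 at CT12, and 3.96, 4.04 and 4.04 at CT18. Its mean was 3.84 ± 0.09 at CT0, against 3.97 ± 0.04 at CT6, 3.96 ± 0.14 at CT12 and 4.02 ± 0.05 at CT18 (SD, n = 3), the CT0 and CT12 values overlapped, and its adjusted p in the F test was 0.729 in limma.

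Rpl7l1, Rpl22l1 and Rps4y2 overlapped across times, with CT12 minus CT0 differences of 0.06, 0.07 and 0.08 and CT18 minus CT6 differences of 0.04, -0.04 and -0.02. RefSeq lists Rps4y2 as the transcribed pseudogene Rps4l. Rpl10l and Rpl39l, copies of Rpl10 and Rpl39 known from the testis, were each well above background on 1 array, CT0 mouse 3 for Rpl10l and CT18 mouse 14 for Rpl39l, and were not tested. RNA of near-identical copies can bind to 1 probe, so the signal of a paralog or its parent gene may hold both.

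**Figure D5:**
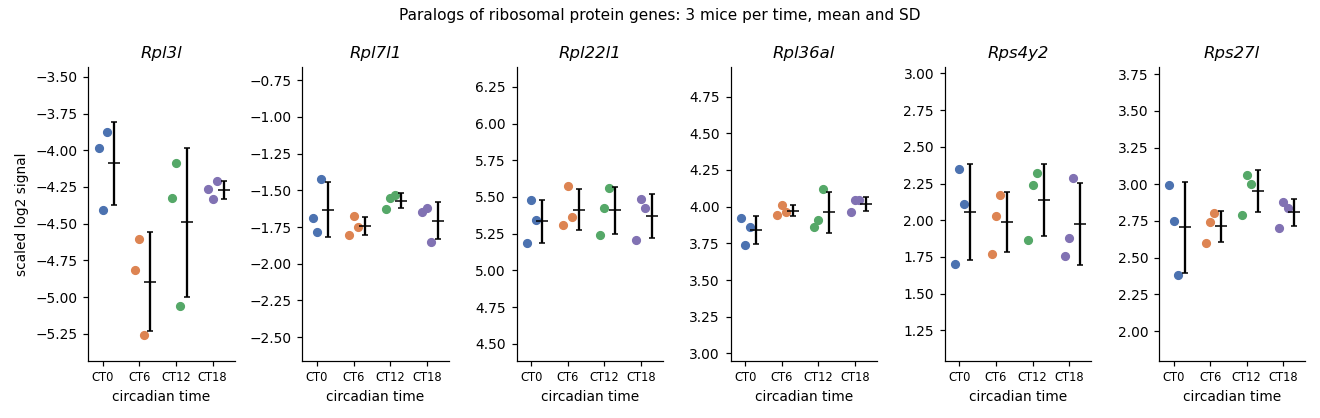
Scaled log2 signal (vertical axis, same span in each panel) of the 6 paralogs that passed the filter, at each circadian time. Points are mice and the bar beside them is the mean with SD (n = 3); Rpl3l spans -5.26 to -3.88 and the other paralogs span 0.69 or less.

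Different probes of a member gave small differences that often disagreed in sign. In the 55 members with at least 2 probes well above background on all arrays, the median gap between the highest and lowest probe was 0.07 for CT12 minus CT0 and 0.06 for CT18 minus CT6, and the sign differed among probes in 24 and 26 of them; those gaps are at least as large as the members' median differences, 0.06 and -0.0011. The widest gaps were 0.71 in Rpl11, where 1 dimmer probe gave -0.51 for CT12 minus CT0 against 0.14 for the brightest, and 0.60 in Rps29, where 1 probe gave 0.60 for CT18 minus CT6 against 0.0021 for the brightest. The probes in use for Rps27 and Rps29 have mm9 coordinates on chromosomes 9 and 2, while RefSeq places those genes on chromosomes 3 and 12. That check compared chromosomes only. The probe in use for Rps2 lies at mm9 chr17:42864841-42864900, far from its other probe at mm9 chr17:24857583-24857642.

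Genes outside the name rule that serve the ribosome gave no calls either. The ribosomal protein Fau and the ribosome-bound scaffold Gnb2l1 (Rack1) gave 0 calls in the 4 tests in limma and 0 at an unadjusted p under 0.05. Of 18 elongation factors and other TOP messages 0 were called in any test; 0 passed the F test unadjusted, against 10.6% of all genes, and 2 passed CT12 against CT0 unadjusted, against 11.7%. Pabpc1, which binds poly(A) tails, had the smallest F test p, 0.071 (adjusted 0.509 in limma), and was 0.25 ± 0.10 lower at CT12 than at CT0 (-0.25, SE), with 4.17, 3.88 and 4.12 at CT12 against 4.37, 4.33 and 4.21 at CT0. Eif3e, a subunit of initiation factor eIF3, followed at 0.092 (adjusted 0.539).

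Of 36 ribosome biogenesis genes 0 were called in any of the 4 tests in limma; unadjusted, 0 passed the F test (10.6% of all genes did), 2 the cosine test (9.73%), 2 CT12 against CT0 (11.7%) and 2 CT18 against CT6 (8.3%). Without CT12 mouse 11 the adjusted count for CT18 against CT6 was 1, where 1.24% of all genes were called. Rrn3, which brings RNA polymerase I to ribosomal DNA, had the smallest F test p, 0.051 (adjusted 0.474), with 2.30, 2.25 and 2.36 at CT18 against 2.14, 2.03 and 2.04 at CT6. Those values did not overlap, and the difference was 0.23 ± 0.08 (SE, n = 3 each; adjusted p 0.421). Nop16, a nucleolar protein, had an F test p of 0.072 (adjusted 0.510). Of 21 genes of mTORC1 signalling to translation 0 were called and 0 passed unadjusted in any test; Akt1s1, an inhibitory partner of mTORC1, and Deptor, another, had F test p values of 0.131 and 0.133 (adjusted 0.587 and 0.589).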

How the data were processed

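Hippocampal RNA of 12 mice was labelled with Cy3 and hybridised to 1-colour arrays, per the labels. Per the file headers, Agilent Feature Extraction (version 10.7.3.1) gave a processed intensity per spot, corrected for background and not scaled between arrays. Spot flags, other columns of 0 or 1, and background intensities were also used as deposited. The authors' deposited value table holds log2 values with column medians of 5.369 to 5.37 and almost equal distributions; its making is not given in the sources used here, and it served as an alternative. Probe coordinates are on mm9, per the file headers.

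Each intensity was put on the log2 scale and set against its array's 75th percentile (control probes excluded), without spots flagged as outliers; spots of a probe were averaged. A probe was kept if at 1 time or more it lay well above background on all 3 arrays (33966 of 55681 probes), and the brightest probe stood for its gene name, giving 24120 genes. R 4.3.3 with limma 3.58.1 fitted 1 mean per time over all 12 arrays; the F test on time, a 24-hour cosine test, CT12 minus CT0 and CT18 minus CT6 were adjusted by Benjamini-Hochberg over all genes, with a threshold of 0.05. Intervals are not adjusted for the number of genes. The procedure was tested on simulated data. The number of mice limits the precision of arrays.

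The members and the gene lists were chosen with earlier results of these data known. Genes named with values were the 8 members ranked first by F test p, the 6 largest and 6 smallest differences of each pair of times, the stalk genes, the paralogs, members not past the filter, and 2 genes of each other list; some of these are given by count or range only, and 1 listed gene is not reported here. RefSeq names matched 82 members by symbol and 2 through accession (Rps3a and Rps4y2). Alternatives were other scalings, filters, probe summaries and variance models, slide as a block, array weights, and leaving out each library.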

Additional observations from a re-analysis of the deposited data

How the results depend on the processing

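The count of called members was 0 in each of the 4 tests under every alternative run, with 1 exception: array weights called Rpl3l in the F test on time (1 member) and for CT18 against CT6 (1 member). That fit gave CT12 mouse 11 a weight of 0.115 and CT6 mouse 7 a weight of 3.76, its weight estimate stopped before reaching its tolerance, and it called 1107 genes by the F test, against 43 in the fit without weights and 0 to 119 in the other alternatives. The median CT12 minus CT0 difference of the members was 0.06; median centring moved it to 0.27, where the median of all genes moved to 0.19 from -0.02, and leaving out 1 mouse at a time gave -0.10 to 0.13, the lowest without CT12 mouse 12. For CT18 minus CT6, leaving out 1 mouse gave -0.04 to 0.05, around a median of -0.0011. Among differences of named members, 1267 moved by less than the spread between replicates and 27 by more, 21 of these under median centring. Median centring shifts all genes of an array alike. Its largest shift was in CT0 mouse 3, where the median deviation of all genes was 0.02 with the main scaling and -0.56 with median centring. No paired analysis was possible because the mice at the 4 times share no replicate numbers; arrays could be matched by slide only, and slide as a block called 0 members. Rpl3l and the 2 genes not past the filter are limited by signal over background.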
